A study of Homo sapiens with 13 samples.

Results

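This is an account of 53 regulators of pre-mRNA splicing in DLD-1 cells, an epithelial line from a human colorectal adenocarcinoma, after knockdown of SOX9 or of Y14. The members are the genes whose symbols stand in a fixed list among the 23886 symbols of each deposited table: 12 SR and TRA2 proteins, 18 hnRNPs, 9 regulators named for tissue-specific splicing and 14 other regulators. Of the 53, 51 had reads in both tables, each with a mean of at least 10 normalised counts, and HNRNPH2 and HNRNPUL2 were listed at 0 in both. Cells were plated 24 h before transfection with siRNA at 50 nM and harvested 72 h after it. In experiments 1 and 2, 4 siSOX9 samples (siRNA against the transcription factor SOX9) were set against 3 siCtrl samples (control siRNA). In experiment 3, 4 siY14 samples, from 2 siRNAs against Y14 numbered 9 and 10, were set against 2 siCtrl samples of their own, and the authors' deposited table holds both siRNAs as 1 arm.

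Alternative splicing is set by proteins that bind the pre-mRNA near a splice site and help or hinder the spliceosome. SR proteins carry a domain rich in arginine and serine and mostly promote exon inclusion from within exons, while many hnRNPs coat introns and exons and often repress it. Regulators such as the muscleblind-like (MBNL), epithelial splicing regulatory (ESRP) and polypyrimidine tract-binding (PTBP) proteins give a tissue its splicing pattern, and the ESRPs hold epithelial cells in theirs. Many of these genes regulate themselves by splicing a poison exon, which carries a premature stop codon, into their own mRNA, so that the transcript goes to nonsense-mediated decay (NMD). RBM8A encodes Y14, which belongs to the core of the exon junction complex left on mRNA at spliced junctions, and that complex feeds the decay pathway.

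SOX9 itself fell from 24468 to 9067 normalised counts in the siSOX9 arm, a log2 fold change of -1.43 with DESeq adjusted p = 1.40e-04 in the authors' deposited table. RBM8A was listed at 0 in both tables, so the Y14 knockdown could not be checked on its own transcript. The 7 epithelial markers ranged from 1930 (VIL1) to 154679 (KRT8) normalised counts over the 4 arms, while the mesenchymal, immune and endothelial markers reported ranged from 0 to 115, with COL1A2, DCN and PECAM1 below 1 in every arm. Of these, COL1A1 and COL3A1 rose and PDGFRB fell after siSOX9, and among epithelial markers VIL1 fell in both tables and CDH1 after siY14. Libraries were estimated at 24.8 to 184 M counts for siSOX9 and its controls and at 47.2 to 71.6 M for siY14 and its controls. These depths and the values of single libraries were worked out from the arm means, which are weighted sums of whole reads. A library found in this way has no sample name, and letters run by depth within an arm, a being the deepest.

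Libraries of experiment 3 stood close to each other in pairs. For genes with means from 100 to 500, the chi-square of siCtrl a against b, siY14 a against c and siY14 b against d averaged 0.977 to 1.14 per gene, where sampling noise alone gives about 1. For every other pair of libraries within an arm it was 1.96 to 18.9. From 2000 to 10000 normalised counts the close pairs gave 1.2 to 1.5 and the others 4.49 to 122, and above 10000 siCtrl a and b gave 4.59. The close libraries therefore differed by about the sampling noise over most of the range and are counted here as 1 sample, which leaves 1 siCtrl and 2 siY14 samples. Whether a pair is 1 siRNA cannot be told from the tables. The authors' p-values take the 6 libraries as separate samples. No label says that samples were separate cultures, so the spread behind the p-values of both tables may be technical.

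In the siSOX9 comparison 1 of the 51 members, PCBP1, had an adjusted p under 0.05 by the authors' deposited table, against 3.47% of all genes tested there. In the siY14 comparison 3 passed, HNRNPA3 and MBNL2 lower and HNRNPH1 higher, against 9.16% of all genes tested. The members' own shares were 1.96% and 5.88%, so neither comparison held more called members than its background. The median log2 fold change of the 51 members was -0.03 after siSOX9 and -0.06 after siY14, beside 0.01 and -0.00 over all genes with a mean of at least 10. In size the members' log2 fold changes had a median of 0.08 after siSOX9 and 0.18 after siY14, beside 0.13 and 0.25 over genes with a mean of at least 1000.

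**Figure D1:**
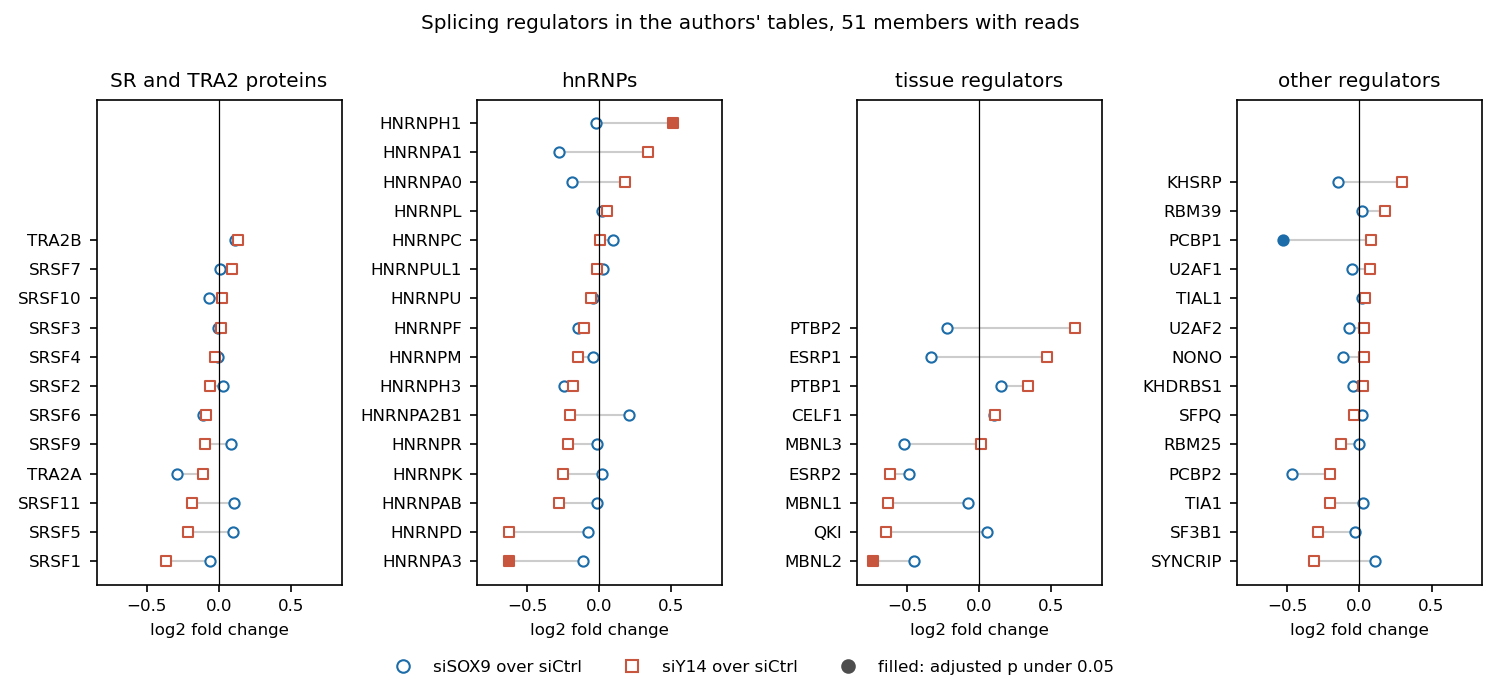
Log2 fold change over siCtrl in the authors' deposited tables (x axis) for the 51 members with reads, by class, with circles for siSOX9, squares for siY14 and filled symbols for an adjusted p under 0.05. The SR and TRA2 proteins lie between -0.37 and 0.13, and the tissue regulators spread from -0.73 to 0.67.

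None of the 12 SR and TRA2 proteins passed the test in either comparison. Their log2 fold changes ran from -0.29 to 0.11 after siSOX9, with 6 above and 6 below 0 and a median of 0.00. After siY14 they ran from -0.37 to 0.13, with 4 above and 8 below 0 and a median of -0.08, which was -0.01 when the arm totals were set equal. By the DESeq test of the authors' deposited tables, 0 had an unadjusted p under 0.05 after siSOX9 and 1 after siY14, beside 11.1% and 31.2% of all genes whose mean reached 1000. Of this class limma-voom could test TRA2A after siY14 alone, with adjusted p = 0.0865. In bulk RNA, less transcript per cell and fewer cells with the transcript cannot be told apart.

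SRSF1, the founding SR protein and an oncogene when overproduced, had the lowest siY14 ratio of the class. Its siCtrl libraries of experiment 3 held 42073 and 40983 normalised counts, and the siY14 mean was 32127 in the authors' deposited table (log2 fold change -0.37, adjusted p = 0.146). After siSOX9 the same gene had 24321 and 23238 normalised counts in the arms, a log2 fold change of -0.07. SRSF5 and SRSF11 followed after siY14 at -0.21 (12391 to 10692, adjusted p = 0.510) and -0.19 (12572 to 11041, adjusted p = 0.585), and both lay slightly above 0 after siSOX9, at 0.09 (11933 to 12732) and 0.11 (12057 to 12972), each with adjusted p = 1. TRA2A, which with its paralog TRA2B activates exons rich in GAA repeats, had the lowest siSOX9 ratio of the class at -0.29 (7362 to 6010, adjusted p = 0.820). Its siCtrl libraries there were 6296, 7768 and 8023 normalised counts, so that the siSOX9 mean lay below all 3. In experiment 3 the TRA2A libraries were 6936 and 6671 in siCtrl against 6214, 6489, 6173 and 6313 in siY14, a narrow gap of -0.11 on the log2 scale. TRA2B had the highest ratio of the class in both comparisons, 0.11 after siSOX9 (15283 to 16542) and 0.13 after siY14 (20232 to 22146), with adjusted p = 1 and 0.790.

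The remaining SR proteins stayed nearer to 0. SRSF6 was at -0.11 after siSOX9 (13843 to 12814 normalised counts, adjusted p = 1) and at -0.09 after siY14. SRSF10, a repressor that is active when it loses its phosphates, was at -0.07 after siSOX9 (10285 to 9792, adjusted p = 1) and 0.02 after siY14 (12976 to 13180, adjusted p = 1). SRSF7, which also exports mRNA, was at 0.01 after siSOX9 and 0.09 after siY14 (16092 to 17163, adjusted p = 0.901). SRSF2, which binds exonic enhancers rich in G and C, was at 0.03 and -0.07, SRSF3 at -0.00 and 0.01, SRSF4 at -0.01 and -0.03, and SRSF9 at 0.08 and -0.10. SRSF3 had 43057 and 43099 normalised counts in the siCtrl libraries of experiment 3 and a siY14 mean of 43486 in the authors' deposited table.

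All 12 SR and TRA2 genes have at least 1 transcript that GENCODE 29 types as an NMD target, as do 37 of the 53 members (69.8%). Among protein-coding genes of the tables with a mean of at least 10 the share is 42.9%, and among those with a siY14 mean of at least 1000 it is 46.9%. Of the 37 members with such a transcript, 14 were above and 23 below 0 after siY14, with a median log2 fold change of -0.07, and of the 14 measured members without one, 8 were above and 6 below, with a median of 0.02. Over genes with a mean of at least 1000 the medians were -0.02 with and -0.04 without such a transcript. The tables count reads per gene, so the level of the decay-targeted transcripts themselves was not measured.

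Among the 16 hnRNPs with reads, 0 passed after siSOX9, where at an unadjusted p under 0.05 there were also 0. After siY14, HNRNPA3 fell and HNRNPH1 rose, and 3 had an unadjusted p under 0.05. Of all genes whose mean reached 1000, 3.73% passed after siSOX9 and 13.2% after siY14, and 11.1% and 31.2% had an unadjusted p under 0.05. The median log2 fold change of the hnRNPs was -0.03 after siSOX9 and -0.13 after siY14. In each, 11 of 16 lay below 0, beside 48.4% and 52.9% of those genes. With equal arm totals the siY14 median was -0.06.

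HNRNPA3, a relative of HNRNPA1 that binds RNA in the nucleus and cytoplasm, held 54158 and 53917 normalised counts in the siCtrl libraries of experiment 3. Its siY14 mean was 35051 in the authors' deposited table, a fold change of 0.649 and a log2 fold change of -0.62 (adjusted p = 0.0325). After siSOX9 it had 35038 and 32344 normalised counts, a log2 fold change of -0.12. GENCODE names 16 pseudogenes after HNRNPA3, and reads that match both can be lost or misplaced, so its level is uncertain. HNRNPD (AUF1), which binds AU-rich elements and speeds mRNA decay, had nearly the same siY14 ratio, -0.62 (17778 to 11535), but adjusted p = 0.107.

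HNRNPH1, which binds runs of G and shifts splice site choice, rose from siCtrl libraries of 36053 and 36954 to a siY14 mean of 52136 normalised counts in the authors' deposited table (log2 fold change 0.51, adjusted p = 0.0386). In the siSOX9 comparison it had 38157 and 37575, a log2 fold change of -0.02. Its close relatives did not pass: HNRNPF was at -0.15 after siSOX9 and -0.10 after siY14, and HNRNPH3 at -0.25 (12425 to 10476, adjusted p = 0.844) and -0.18. HNRNPH2, another relative, had no reads, and the listed readthrough gene that contains it held 2.04 and 1.69 normalised counts in the arms of the siSOX9 table. HNRNPUL2 likewise overlaps a readthrough gene, listed at 35.5 and 50.2 there. How the counting treats reads shared with those genes was not tested.

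HNRNPA1, the textbook antagonist of SRSF1 at splice sites, was listed far below its relatives, at 3156 and 2603 normalised counts in the siSOX9 table and 1290 and 1631 in the siY14 table. GENCODE names 74 pseudogenes after it, so the level is uncertain. Its siCtrl libraries of experiments 1 and 2 were 4545, 2152 and 2771, the widest spread of any member with recovered siCtrl reads (coefficient of variation 39.4%). The siSOX9 log2 fold change of -0.28 (adjusted p = 1) lay within that spread. In experiment 3 the libraries were 1310 and 1271 in siCtrl and 1731, 1599, 1638 and 1555 in siY14, with no overlap, and the log2 fold change was 0.34 (adjusted p = 0.248).

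The most abundant members by normalised count were also hnRNPs. HNRNPA2B1, which sorts RNAs for splicing and transport, had 66970 and 77247 in the arms of the siSOX9 table, the highest siSOX9 ratio of the class at 0.21 (adjusted p = 1), and 105319 and 91539 in the siY14 table, at -0.20 (adjusted p = 0.531). HNRNPC, which keeps cryptic exons silent, was at 0.10 after siSOX9 (63750 to 68181, adjusted p = 1) and 0.01 after siY14 (56435 to 56647). HNRNPK, a poly(C)-binding protein, had 62666 and 63645 in the siSOX9 table and 80385 and 67693 in the siY14 table, at 0.02 and -0.25. HNRNPU, a scaffold-bound hnRNP, had 63894 and 61303 in the siY14 table, at -0.06, and -0.04 after siSOX9. HNRNPA0 had opposite signs in the comparisons, -0.19 after siSOX9 (13923 to 12232, adjusted p = 0.954) and 0.18 after siY14 (15818 to 17873, adjusted p = 0.656). HNRNPAB followed HNRNPA3 and HNRNPD after siY14 at -0.28 (29688 to 24506, adjusted p = 0.463). HNRNPUL1 was at 0.03 after siSOX9 (28051 to 28639, adjusted p = 1) and -0.01 after siY14. HNRNPL, HNRNPM and HNRNPR lay between -0.22 and 0.06 in both tables.

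The 9 tissue regulators had the widest range of the 4 classes after siY14. Their median absolute log2 fold change there was 0.62, beside 0.09 in the SR class and 0.19 among hnRNPs. In size 6 of the 9 were beyond 0.4, against 28.9% of all genes whose mean reached 1000. QKI, with a mean of 756, lies below that limit, and over genes with a mean of at least 10 the share was 35.8%. Only MBNL2 passed the test after siY14 and 0 did after siSOX9. At an unadjusted p under 0.05 there were 5 of 9 after siY14 and 3 of 9 after siSOX9, against the same 31.2% and 11.1% of genes. Over genes with a mean of at least 10 these shares were 29.2% and 13.6%. They lay on both sides of 0 after siY14, 5 above and 4 below, with a median of 0.01. After siSOX9 the median was -0.23, with 3 above and 6 below 0. Both arms could be resolved into libraries for 5 of these genes after siSOX9 and 6 after siY14.

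MBNL2, a muscleblind-like protein that drives adult splicing patterns in muscle and brain, fell after siY14. Its libraries held 5445 and 5287 normalised counts in siCtrl against 3917, 2589, 3850 and 2543 in siY14, with no overlap. As 1 siCtrl and 2 siY14 samples this was 5366 against 3225 ± 931 (SD, n = 2). The log2 fold change was -0.73 with adjusted p = 0.0106 in the authors' deposited table. In the siSOX9 table the MBNL2 libraries were 2970, 2969 and 3118 in siCtrl against 2251, 2311, 2175 and 2097 in siSOX9, or 3019 ± 85.8 (SD, n = 3) against 2209 ± 92.8 (SD, n = 4). These did not overlap either, and the gap between the arms was larger than the spread within either. The authors' deposited table gives a log2 fold change of -0.45 with adjusted p = 0.282, while limma-voom on the recovered reads gave -0.43 ± 0.06 (SE) with adjusted p = 0.00142.

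MBNL3, the paralog known mainly from placenta, was lower in all 4 siSOX9 libraries (903, 692, 760 and 736 normalised counts) than in the siCtrl libraries (1223, 955 and 1148). Its log2 fold change was -0.52 with adjusted p = 0.187 in the authors' deposited table, and limma-voom gave -0.51 ± 0.12 (SE) with adjusted p = 0.0181. The MBNL3 call was lost without siCtrl library a (-0.38, adjusted p = 0.119) and without siSOX9 library d (-0.49, adjusted p = 0.0529). After siY14 the pairs of MBNL3 lay on either side of siCtrl, at 1816 and 1359 against 1576, and the log2 fold change was 0.01. MBNL1, the most abundant of the 3 paralogs per exon length, had siCtrl libraries of 19280 and 18980 and a siY14 mean of 12327 in the authors' deposited table (log2 fold change -0.63, adjusted p = 0.0541), and was at -0.08 after siSOX9.

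ESRP1 was the 1 member that passed a test of the difference between the knockdowns. This epithelial regulator held 2181, 2066 and 2092 normalised counts in siCtrl against 1762, 1717, 1533 and 1701 in siSOX9, and 2987 and 3005 in siCtrl against 3787, 4556, 3594 and 4618 in siY14. Every siSOX9 library was below its controls and every siY14 library above its own. Neither change passed by itself in the authors' deposited tables (log2 fold change -0.33 with adjusted p = 0.629, and 0.47 with adjusted p = 0.0724). The difference, siSOX9 minus siY14, was -0.80 with a 95% interval of -1.30 to -0.29 and adjusted p = 0.0323 (normal test with errors taken from the authors' p-values). In a joint limma-voom model of the recovered reads it was -0.78 ± 0.14 (SE) with adjusted p = 0.00250. With experiment 3 taken as 1 siCtrl and 2 siY14 samples the joint limma-voom value was -0.79 with adjusted p = 0.0217, but that siCtrl arm has no spread of its own, and the error came from the other arms and from the spread shared over genes. By the first test 1 of 51 members passed, against 7.45% of all genes. PTBP2 had a larger difference by that test, -0.89, with adjusted p = 0.227. In the joint limma-voom model of separate libraries QKI was at 0.71 (adjusted p = 0.0532) and PTBP2 at -0.83 (adjusted p = 0.0643). The knockdowns were made in different experiments, so target and experiment cannot be told apart. The joint model could test 5 members and called 1, against 20% of all genes, and with libraries summed it called 1 of 5 against 4.86%.

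ESRP2, which shares most targets with ESRP1, was lower in both comparisons without passing. Its siCtrl libraries of experiments 1 and 2 held 8717, 10943 and 10551 normalised counts against a siSOX9 mean of 7177 in the authors' deposited table (log2 fold change -0.49, adjusted p = 0.131). In experiment 3 ESRP2 had 8193 and 8311 in siCtrl, 6844 and 6980 in siY14 libraries a and c, and 3891 and 3745 in b and d. The log2 fold change of -0.62 (adjusted p = 0.20) thus averaged a pair at -0.26 and a pair at -1.11.

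PTBP1, the widely expressed repressor of neural exons, and PTBP2, its neural paralog, both had ratios above 0 after siY14. PTBP2 had the highest ratio of all 51 members, 0.67 (adjusted p = 0.306), with 1869 and 1892 normalised counts in siCtrl against 2281 and 2176 in siY14 libraries a and c and 3837 and 3643 in b and d. No siY14 library of PTBP2 overlapped siCtrl, but the second pair mean was 1.68 times the first. PTBP1 was at 0.34 after siY14 (24825 to 31342, adjusted p = 0.232) and 0.15 after siSOX9 (29078 to 32227, adjusted p = 1). In the siSOX9 table the PTBP2 libraries overlapped, 1309, 1148 and 1507 in siCtrl against 1145, 1115, 950 and 1305, at -0.23.

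QKI, the quaking RNA-binding protein that also shapes circular RNAs, had a log2 fold change of -0.65 after siY14 (adjusted p = 0.0555). Its libraries held 1020 and 971 normalised counts in siCtrl against 781 and 773 in siY14 a and c and 472 and 518 in b and d. After siSOX9 the QKI libraries overlapped, 547, 436 and 494 against 521, 498, 479 and 549, and the log2 fold change was 0.06 (492 to 512, adjusted p = 1). CELF1, which opposes MBNL proteins at shared exons, was at 0.10 after siSOX9 (6988 to 7494, adjusted p = 1) and 0.11 after siY14 (10887 to 11730).

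**Figure D2:**
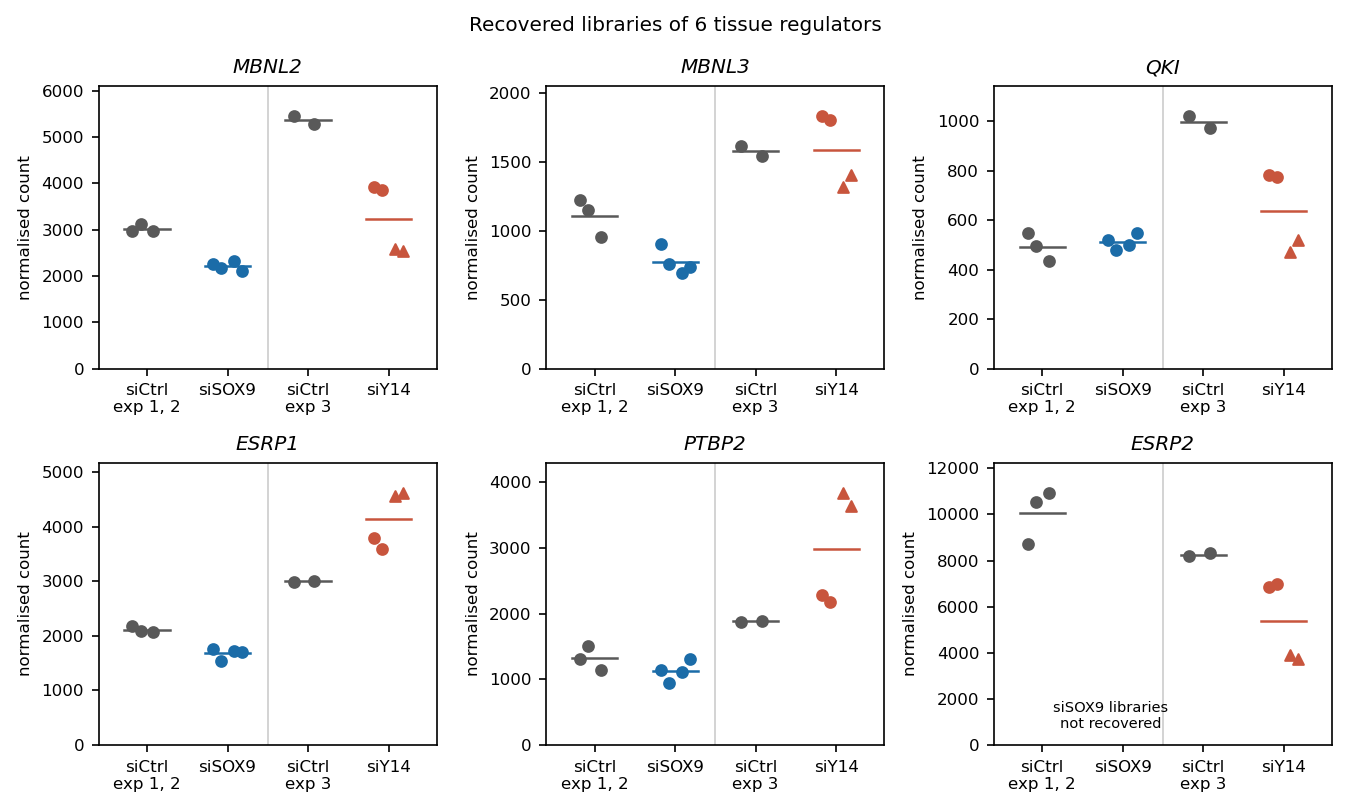
Normalised count (y axis) in each recovered library of MBNL2, MBNL3, QKI, ESRP1, PTBP2 and ESRP2, with bars at arm means; triangles mark siY14 libraries b and d. MBNL2 is lower after each siRNA than in its own controls, and ESRP1 is lower after siSOX9 and higher after siY14. For MBNL2, ESRP1, PTBP2 and ESRP2 the search itself held the siY14 libraries in 2 pairs, within 8%. MBNL3 and QKI were recovered without that condition and show the same pairs.

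The 2 siY14 pairs, each counted here as 1 sample, differed from each other in the size of the log2 ratio to siCtrl. Of the 9 members with recovered siY14 reads, 8 had both pairs on the same side of siCtrl, and MBNL3 did not. Both pairs are set against the same siCtrl sample, and 78.5% of 5088 recovered genes with a mean above 200 had their pairs on 1 side, so nothing is read from that count. In PTBP2, ESRP1, MBNL2, QKI and ESRP2 the pair b and d lay further from siCtrl than a and c: PTBP2 was at 0.25 in a and c and 0.99 in b and d, MBNL2 at -0.47 and -1.06, QKI at -0.36 and -1.01. In TRA2A, HNRNPA1 and TIA1 the pair a and c lay further. TRA2A was at -0.14 in a and c and -0.09 in b and d, HNRNPA1 at 0.38 and 0.29, TIA1 at -0.27 and -0.14. For 6 of the 9 the search for reads itself held paired libraries within 8% of each other. Of the 3 recovered without that condition, MBNL3 and QKI showed the same pairs, while in HNRNPA1 library c (1638) was nearer to b (1599) than to a (1731). The ratio of the pairs was beyond 1.4-fold for 20.1% of 5050 recovered genes with a mean above 200.

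**Figure D3:**
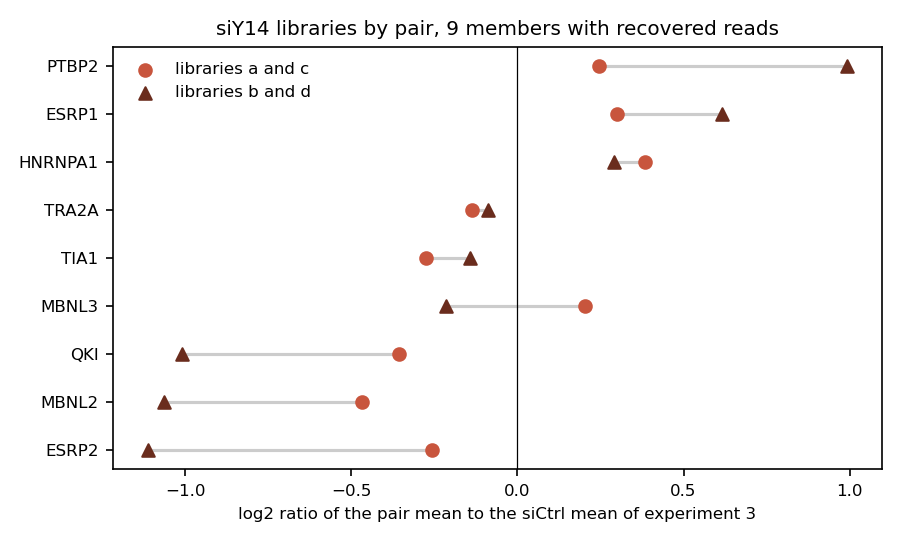
Log2 ratio of each siY14 pair mean to the siCtrl mean of experiment 3 (x axis) for the 9 members with recovered reads, with circles for libraries a and c and triangles for b and d. ESRP2 lies at -0.26 and -1.11, while TRA2A lies at -0.14 and -0.09.

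No library overlap between arms was found for 3 of 5 recovered members in the siSOX9 table (MBNL2, MBNL3 and ESRP1) and for 8 of 9 in the siY14 table (all but MBNL3). The share among all recovered genes was 29.4% and 58.7%. The same 3 siSOX9 members passed limma-voom, against 18.8% of all genes in that fit. In the siY14 table limma-voom called 4 of 9, MBNL2 and TIA1 lower and HNRNPA1 and ESRP1 higher, against 21.2% of all genes. With no filter on low means it called 2 of 9, MBNL2 and HNRNPA1, against 10.7%, and ESRP1 and TIA1 had adjusted p = 0.0527 and 0.0556. With the siY14 libraries summed within pairs limma-voom called 0 of 9, against 0.0126% (MBNL2 adjusted p = 0.152). With siCtrl summed as well it called MBNL2 and ESRP2, against 0.704% of all genes, and the siCtrl arm then has 1 sample and no spread of its own. That fit has 1 residual degree of freedom and took its errors almost wholly from the spread shared over genes, so the gap between the ESRP2 pairs hardly entered it.

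The other regulators lay near 0 after siY14, with log2 fold changes from -0.32 to 0.29 and a median of 0.03. There 0 of 14 passed and 0 had an unadjusted p under 0.05, beside 13.2% and 31.2% of all genes whose mean reached 1000. After siSOX9, PCBP1 fell, and its paralog PCBP2 had the next lowest ratio. Of the 14, 1 passed after siSOX9 and 2 had an unadjusted p under 0.05, beside 3.73% and 11.1% of all genes whose mean reached 1000. The median of the class after siSOX9 was -0.04, and 12 of the 14 were within 0.4 of 0. Of those genes 10.2% were beyond 0.4.

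PCBP1, an intronless poly(C)-binding protein that acts in splicing, translation and mRNA stability, held 29930, 33977 and 34962 normalised counts in the siCtrl libraries, or 32957 ± 2667 (SD, n = 3). The siSOX9 mean was 22856 in the authors' deposited table, a fold change of 0.694 and a log2 fold change of -0.53 (adjusted p = 0.0438). That mean lay below every siCtrl library, but the siSOX9 reads of PCBP1 were not recovered. After siY14 it was at 0.08 (38216 to 40365, adjusted p = 0.927), and the difference between the knockdowns was -0.61 (adjusted p = 0.115). PCBP2 had siCtrl libraries of 40532, 31877 and 34421 and a siSOX9 mean of 25684 (log2 fold change -0.47, adjusted p = 0.140), and was at -0.21 after siY14.

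The exons of PCBP1 overlap those of PCBP1-AS1, a gene on the opposite strand, which went the other way. PCBP1-AS1 held 754, 806 and 751 normalised counts in siCtrl against 1461, 1640, 1350 and 1766 in siSOX9, with adjusted p = 3.23e-05 in the authors' deposited table. In experiment 3 it had 583 and 635 in siCtrl against 624, 737, 634 and 754 in siY14 (adjusted p = 0.675). The libraries were made with a stranded kit, but the sources used here do not give the strand setting of the counting. Whether reads of 1 gene were counted for the other was not tested. In all, 12 of the 53 members overlap an exon of a listed gene on the opposite strand.

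As SOX9 is a transcription factor, the 250 bases before the annotated starts of PCBP1 and MBNL2, the member that passed in the authors' deposited table after siSOX9 and the one with the lowest limma-voom p there, were read from RefSeq (GRCh38.p14, plus strand). The letters AACAAT and ACAAAG, which resemble the core that SOX proteins bind, were searched on both strands, and matches are in capitals. Neither word contains the other. The PCBP1 window, chr2:70087227-70087476, had 0 matches. MBNL2 has 2 annotated starts, and the window of the second, chr13:97222083-97222332, had 1 match, at position -223 from the start, while the first had 0.
PCBP1: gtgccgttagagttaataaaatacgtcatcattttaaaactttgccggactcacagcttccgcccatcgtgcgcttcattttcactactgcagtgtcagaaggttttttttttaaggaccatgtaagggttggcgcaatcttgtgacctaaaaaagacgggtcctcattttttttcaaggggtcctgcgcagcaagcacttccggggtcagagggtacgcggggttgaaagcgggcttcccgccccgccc
MBNL2: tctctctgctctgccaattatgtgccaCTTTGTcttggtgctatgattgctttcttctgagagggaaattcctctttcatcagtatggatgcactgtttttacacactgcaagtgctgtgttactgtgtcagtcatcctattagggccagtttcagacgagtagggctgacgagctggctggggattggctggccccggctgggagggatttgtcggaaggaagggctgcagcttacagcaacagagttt
A match was found in 20.9% of all 35116 promoter windows and in 20% of the 70 windows of members, which cover 45 of the 53. A match is a description of the letters and not evidence of binding.

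KHSRP, which promotes decay of AU-rich mRNAs, had the highest siY14 ratio of these regulators, 0.29 (26167 to 32045, adjusted p = 0.322), and was next lowest to the PCBPs after siSOX9 at -0.15 (39245 to 35394, adjusted p = 1). Its siCtrl libraries of experiments 1 and 2 were 30241, 43641 and 43853, so the siSOX9 value was inside the spread of its controls. SYNCRIP (hnRNP Q), which binds poly(A) and sorts RNA into vesicles, was highest after siSOX9 at 0.11 (32635 to 35177, adjusted p = 1) and lowest after siY14 at -0.32 (54517 to 43787, adjusted p = 0.239). SF3B1, the branch point protein often mutated in myelodysplasia, was at -0.03 and -0.29 (22704 to 18593, adjusted p = 0.310). TIA1, which activates weak splice sites beside U-rich stretches, had 7048 and 6958 normalised counts in siCtrl against 5764, 6302, 5816 and 6375 in siY14, at -0.21 (adjusted p = 0.519), and 0.03 after siSOX9 (5536 to 5641, adjusted p = 1). RBM39, the target of aryl sulfonamide degraders, was at 0.02 after siSOX9 (12275 to 12447, adjusted p = 1) and 0.18 after siY14 (20160 to 22760, adjusted p = 0.654).

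The rest of this class lay within 0.13 of 0 in both tables. U2AF1 and U2AF2, the 2 subunits that read the 3′ splice site, were at -0.05 and -0.07 after siSOX9 and at 0.07 and 0.03 after siY14. TIAL1, the TIA1 paralog, was at 0.02 and 0.04. The paraspeckle proteins SFPQ and NONO were at 0.02 and -0.11 after siSOX9 and at -0.04 and 0.03 after siY14. KHDRBS1 (Sam68) was at -0.05 and 0.03, and RBM25 at -0.00 and -0.13.

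Normalised counts grow with transcript length, so levels were compared between genes per kb of merged GENCODE exon. Merged exons pool all annotated transcripts of a gene and can be longer than any 1 mRNA. PCBP1 has 1 annotated transcript and 1.75 kb, and HNRNPU has 31 and 22.5 kb. Ranks and class medians per kb therefore also depend on the annotation. The tables were normalised separately, so a level is set against others of its own table. PCBP1 was the highest member in both siCtrl arms, at 18832 and 21838 normalised counts per kb, followed by HNRNPK at 12254 and 15719. By class, the median level per kb in the siCtrl arm of experiments 1 and 2 was 2277 for SR and TRA2 proteins, 3829 for hnRNPs, 615 for tissue regulators and 3457 for the others. QKI was lowest at 28.3 and 57.3 per kb, with MBNL3 (90.9 and 129) and PTBP2 (102 and 145) next. PTBP1 stood at 4225 and 3607 per kb, far above PTBP2. ESRP2 was above ESRP1, at 1810 against 433 in experiments 1 and 2 and 1483 against 615 in experiment 3, and MBNL1 was above MBNL2 in both arms, at 1131 against 615 and 1915 against 1093.

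**Figure D4:**
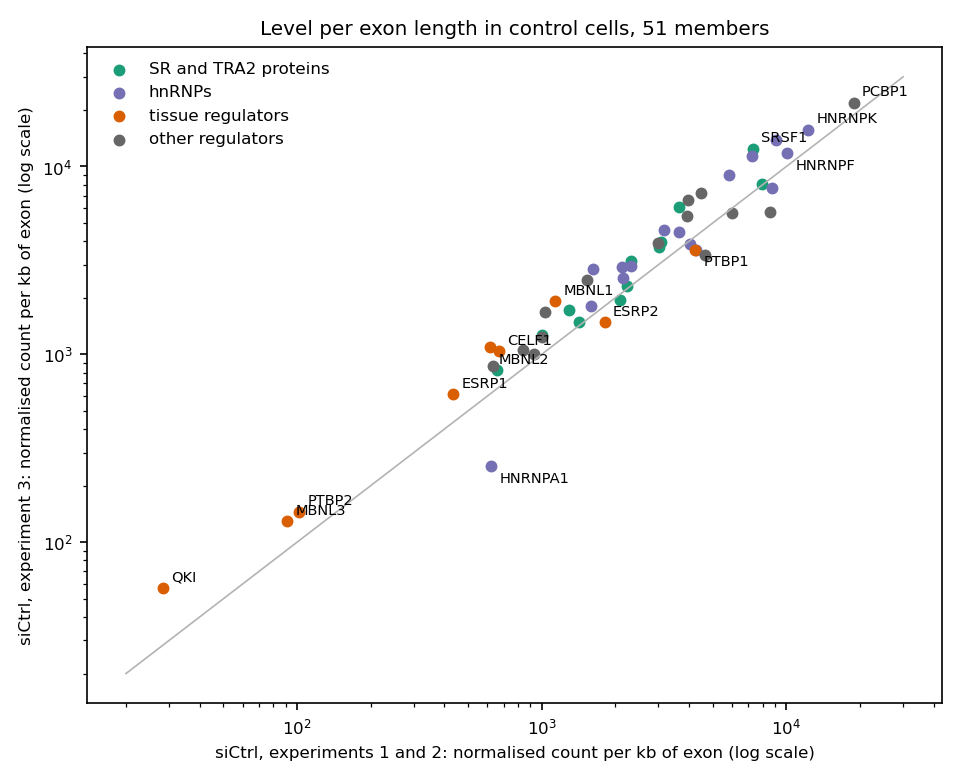
Normalised count per kb of exon in the siCtrl arm of experiments 1 and 2 (x axis) and of experiment 3 (y axis), both on log scales, for 51 members coloured by class, with the line of equality. PCBP1 is highest in both, QKI lowest, and HNRNPA1 lies furthest below the line, at 620 and 253.

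The deepest siCtrl library of experiments 1 and 2 stood apart for many members. Library a, at 179 M counts against 38.1 and 25 M, was beyond 1.2-fold from the mean of b and c for 19 of 48 members with recovered siCtrl reads, while b and c were that far apart for 3. The median coefficient of variation of a member was 8.84% in that arm, against 0.806% in the siCtrl arm of experiment 3. The highest ratio of library a to the others was 1.85, in HNRNPA1, and the lowest was 0.691, in KHSRP. The labels place 1 siCtrl and 1 siSOX9 sample in experiment 2 and the rest in experiment 1, and 1 library of each arm was this deep (179 M and 184 M counts, against at most 41.7 M). Whether the deep libraries are the samples of experiment 2 was not tested, as recovered libraries carry no names. Without siCtrl a alone limma-voom kept MBNL2 (-0.45, adjusted p = 0.00593) and lost MBNL3 (-0.38, adjusted p = 0.119) and ESRP1 (-0.29, adjusted p = 0.0668), against 12.7% of all genes called. Without library a of both arms it gave MBNL2 -0.46, MBNL3 -0.51 and ESRP1 -0.33, all below an adjusted p of 0.05, where 29.9% of all genes were called. With a term for the deep library of each arm it gave -0.44, -0.47 and -0.32, and PTBP2 also passed (-0.21, adjusted p = 0.0179), where 48.3% of all genes were called.

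Other genes of the splicing machinery were chosen by function, and their counts stand against 3.47% of all genes called after siSOX9 and 9.16% after siY14. Of 40 core spliceosome genes, SF3B3 fell after siSOX9 (21385 to 14011, log2 fold change -0.61, adjusted p = 0.0154) and 27 of the 40 lay above 0, beside 51.6% of all genes whose mean reached 1000, with a median of 0.06. After siY14, SF3A2 rose (2482 to 4265, 0.78, adjusted p = 0.0422) and PRPF8, the central scaffold of the spliceosome, fell (48281 to 25960, -0.90, adjusted p = 0.00227), while 20 lay above and 20 below 0 with a median of 0.00. TAF15, an FET-family protein, fell after siY14 from siCtrl libraries of 13844 and 13861 to 9212, 5820, 9202 and 5877 normalised counts (-0.88, adjusted p = 0.00224). It was the 1 gene called among 27 other RNA-binding regulators, and 0 of 26 were called after siSOX9. None of the 8 SR protein kinases or the 16 further RS-domain proteins passed in either table, and 7 of the 8 kinases lay below 0 after siY14, beside 52.9% of all genes whose mean reached 1000, with a median of -0.13.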

How the data were processed

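The deposited tables hold, per the file headers, an overall mean and 2 arm means of normalised counts for each gene symbol, a linear fold change (a ratio), its log2, and a p-value with its adjusted form. The authors scaled the counts of each library by a size factor, so the deposited means are a signal and not raw counts. The submitters' processing notes name DESeq, HTSeq, SAMtools, HISAT2, Bowtie and TopHat2 with build hg19, and which tool made which table is not given in the sources used here. Per the labels' protocols, libraries were stranded and made from polyadenylated RNA.

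Every arm mean adds up whole reads, each worth a fixed amount in its library. The search looked for the only set of reads, within a window around equal normalised counts, that gives all printed digits. It recovered both arms for 74.3% (siSOX9) and 69% (siY14) of genes with reads, but for only 5 and 9 of the 51 members. The window could be as narrow as 20% either side, and a library outside it could not be returned. Spreads within an arm and overlaps between arms are bounded by that window. Where libraries were wanted for genes of higher mean, paired siY14 libraries were held within 8%. That search allowed up to 0.3 sets of reads expected by chance per gene, against 0.05 in the first search, so its libraries are less certain. On simulated arms the search returned 516 of 520 sets of reads and 0 wrong ones. The simulated libraries were drawn near their arm mean, so errors for libraries outside the window were not tested. The simulated siY14 arms of higher mean were drawn with close pairs, so errors where a pair breaks the 8% limit were not tested. Simulated siCtrl means did not reach those of the most abundant members, and the second search of siCtrl arms was not simulated. 2 of 400 arms shifted off any whole-read sum were accepted. Recovered reads with a mean of at least 10 were fitted by voom of limma 3.58.1 under R 4.3.3, scaled by the authors' size factors. Tested on simulated data of independent libraries, the siSOX9 design called 47 of 97 genes at a 1.4-fold change and 97 of 103 at 2-fold (11 false of 155) and the siY14 design 47 of 96 and 93 of 104 (3 false of 143).

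The authors' adjusted p-values, which match a Benjamini-Hochberg adjustment of each whole table, are the main test at 0.05. The difference between knockdowns used the authors' log2 fold changes with errors from their p-values over 13186 genes. Members and gene lists were chosen with earlier results of these data known. Every member is named, with arm means or libraries, log2 fold change and adjusted p for those past 0.05 and for the 3 highest and 3 lowest ratios per class and table, and with arm means for the 3 most abundant. 0 columns of samples went unmatched. 1 cell type marker is not reported here. Protein sequences were not used here. Exon lengths, NMD transcripts and overlaps come from GENCODE 29 (GRCh38), matched by symbol for all 53 members, and no coordinate was joined to the tables.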

Additional observations from a re-analysis of the deposited data

Results flagged for a closer look

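ESRP1, the epithelial splicing regulator, was the 1 member that passed a test of the difference between its log2 fold changes after siSOX9 and after siY14. The difference was -0.798 (siSOX9 minus siY14, SE 0.258, adjusted p = 0.0323 by a normal test over 13186 genes). By that test 7.45% of all genes passed. All 4 recovered siSOX9 libraries were lower than their 3 siCtrl libraries, and all 4 siY14 libraries were higher than their 2. Counted as 1 siCtrl and 2 siY14 samples, ESRP1 had 2996 against 4139 ± 634 (SD, n = 2) normalised counts in experiment 3. PCBP1, HNRNPH1 and PTBP2 had an unadjusted p under 0.05 for the same difference, with adjusted p = 0.115, 0.216 and 0.227. The share of all genes at that unadjusted p was not counted, so nothing is read from their number. No siSOX9 arm with recovered reads held a library far from the other 3 by a Dixon cutoff of 0.829 for 4 values (5 members checked). Where the search window was narrow, a far library could not have been returned, so this check is limited by the search. Over recovered genes with means from 500 to 2000, siSOX9 library a did stand apart. Its chi-square per gene averaged 17.4 to 36.6 against b, c and d, which gave 3.35 to 3.94 among themselves.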

How the results depend on the processing

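Of the 51 members the authors' adjusted p called 1 after siSOX9, against 3.47% of all genes tested. At a threshold of 0.01 it called 0, and at 0.1 it called 1. For both comparisons the share of all genes at these other thresholds was not counted, so nothing is read from the members' counts there. Limma-voom, which could test 5 members there, called 3, against 18.8% of all genes. It also called 3 with no filter on low means (1435 of 13934 genes) and without both deepest libraries (29.9% of genes). With a term for the deepest library of each arm it called 4, against 48.3% of genes. With each library left out it called 1 to 3, against 1101 of 8833 to 2133 of 8826 genes. Without siCtrl library a MBNL3 and ESRP1 were lost, and without siSOX9 library d MBNL3 was. After siY14 the authors' adjusted p called 3, against 9.16% of all genes tested, with 0 at 0.01, 6 at 0.1 and 5 when adjusted over genes with a mean of at least 10. Limma-voom called 4 of 9 testable members, 2 with no filter on low means, 0 with the siY14 libraries summed within pairs, 2 with siCtrl summed as well, and 0 to 6 with each library left out. The shares of all genes called were 21.2% in the main fit, 10.7% with no filter and 0.0126% with summed siY14 pairs. Without siY14 b limma-voom called 0 members, against 875 of 7931 genes, and without siY14 d 1, against 669 of 7947. Without siY14 c it called 3, against 1602 of 7964 genes, and without siY14 a 6, against 2171 of 7961. Leaving out a siCtrl library leaves 1 sample that is assumed to vary like the siY14 arm, so nothing is read from counts of those fits. The difference between the knockdowns kept 1 call in both joint models. After siSOX9 no filter, pseudocount or scaling moved a class median by more than its spread over the 3 siCtrl libraries (SD 0.0192 to 0.0501); the SR median went from 0.003 to -0.004 when centred on all genes with a mean of at least 100. After siY14 the 2 siCtrl libraries are counted here as 1 sample, though the labels list 2, so their SD (0.00288 to 0.016) may be technical. There equal arm totals moved the class medians of log2 fold change from -0.079 to -0.010 (SR), -0.126 to -0.057 (hnRNPs), 0.011 to 0.080 (tissue regulators) and 0.028 to 0.097 (others), and centring gave -0.070 for SR, -0.116 for hnRNPs and 0.038 for the others. Filters and pseudocounts moved none by more than that SD. Summing libraries, leaving out or fitting a term for the deepest and the unfiltered limma-voom fit were chosen after seeing the data. No paired analysis was possible because the columns carry no replicate numbers and the recovered libraries carry no sample names. Depth limited which members could be tested per library: high means fit too many sets of reads.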
